A study of Mus musculus with 4 samples.

Results

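Krüppel-like factors (KLFs) are transcription factors that bind GC-rich and CACCC-type DNA elements through zinc fingers at the carboxy-terminal end of the protein. Their amino-terminal regions differ and recruit different partners: one class binds the corepressor CtBP, another binds histone acetyltransferases such as p300, and the last binds the corepressor SIN3A. In the intestinal epithelium the family is known for KLF5, which is expressed in dividing crypt cells, and KLF4, which is expressed in differentiated cells. The genes described here are KLF3, KLF5, KLF6, KLF9, KLF11 and KLF16, 6 of the 17 KLF genes with a named probe set and 6 of the 14884 named genes in all. They were picked because their signal was higher after treatment with F5446, so the difference between treated and untreated cells is a description for these 6 genes and carries no test. All 6 lie past a 2-fold difference, from KLF16 at 2.01-fold to KLF9 at 4.18-fold. The next genes of the family below KLF16 were KLF10 at 1.84-fold and KLF12 at 1.75-fold. Each of the 6 had 1 probe set, so a check against a second probe set could not be made.

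The study compared SW620 cells, a human colon carcinoma line grown in RPMI medium with serum, without treatment (Ctrl) and after 2 days in 50 nM F5446, a compound that the labels call selective for the histone methyltransferase SUV39H1. RNA from each group was hybridised to 2 single-colour arrays, 4 in all. The series names them biological replicates without naming the cultures behind them, and the p-values cover the spread between these 4 arrays, which may be technical. The sample records list mouse as the organism, while the growth protocol is for a human line and the probe annotation lists human symbols, and the data were read as human.

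Across all named genes the arrays within a group correlated at 0.994 (Ctrl) and 0.995 (F5446), and arrays of different groups at 0.943 to 0.945, across genes, which are not independent replicates. In limma's test with Benjamini-Hochberg adjustment at a threshold of 0.05, 6086 genes (40.9%) differed between the groups, 2714 (18.2%) higher and 3372 (22.7%) lower after F5446. With each array centred on its median the split was 3420 higher and 2735 lower, since centring adds the same amount to the difference of every gene. The median log2 difference of all genes was -0.05 as deposited, 0.08 after centring and -0.07 after quantile normalization. SUV39H1 mRNA fell, with a log2 difference of -1.73 ± 0.08 (SE, adjusted p = 3.44e-07 in limma's test) on the brighter of its 2 probe sets. With both probe sets averaged the difference was -1.46. Of 14 measured colon epithelial markers, EPCAM (log2 signal 11.0 in Ctrl) and KRT18 (11.8) were bright, while KRT20 (3.34) and CEACAM6 (3.41) were dim. After F5446, 6 of the 14 fell and 3 rose, with a median of -0.22. VIL1, which encodes villin, fell by 3.87, CLDN3 by 1.18, KRT18 by 1.11 and EPCAM by 0.76 on the log2 scale. The 3 that rose were CEACAM5 by 1.93, CEACAM6 by 1.07 and KRT19, also bright in Ctrl (10.07), by 0.48. Of 9 measured immune, stromal and liver markers, 8 had Ctrl means of 1.95 to 5.09, and LUM, which encodes lumican, fell from 7.03 to 4.01. The summed signal of these 9 markers was 7.93 and 7.94 on the log2 scale in Ctrl and 7.12 and 7.09 after F5446. Its fall came from LUM, and the other 8 markers did not pass the test. For the 14 epithelial markers the summed signal was 13.15 and 13.14 in Ctrl and 12.34 and 12.36 after F5446. The part of either list in the KLF values was not tested. The array reads bulk RNA, in which fewer cells with a transcript and less of it per cell cannot be told apart.

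The 6 KLF genes differed from Ctrl by a median of 1.35 on the log2 scale, beside -0.05 for all named genes. In each of the 6, both F5446 arrays lay above both Ctrl arrays, which was so in 28.4% of all genes; a log2 difference of at least 1, the feature they were picked for, was reached by 5.40% of all genes. The gap between the lowest F5446 and the highest Ctrl array ran from 0.84 to 1.95 among the 6, and the largest SD within a group was 0.25, for the F5446 arrays of KLF16.

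**Figure D1:**
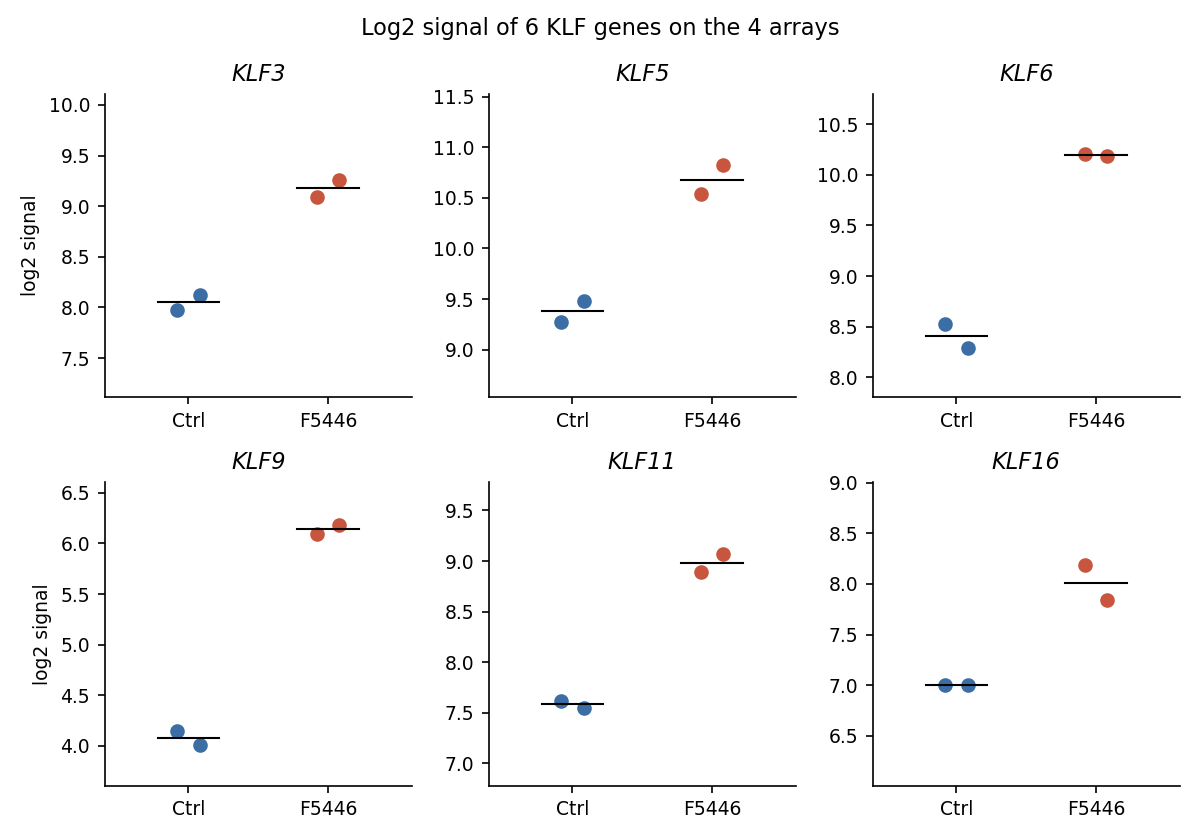
Log2 signal of the 6 KLF genes (vertical axes, each panel spanning 3 log2 units) on the 2 Ctrl arrays (blue) and the 2 F5446 arrays (red), with the group mean as a line. In every panel both red points lie above both blue points, with the widest gap in KLF9 and the narrowest in KLF16.

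KLF5 and KLF6 belong to the class that binds histone acetyltransferases. KLF5 (probe set 16775364) promotes proliferation of crypt epithelial cells. Its log2 signal was 9.28 and 9.48 on the Ctrl arrays and 10.54 and 10.82 on the F5446 arrays. The treated arrays lay at least 1.05 above the untreated ones, and the group means differed by 1.30 ± 0.10 (SE; 2.46-fold; 9.38 ± 0.15 in Ctrl and 10.68 ± 0.20 after F5446, SD, n = 2 each). KLF6 (probe set 16711280) is a widely expressed factor that is induced as an early gene in many cell types and that restrains growth in several tumours. Its log2 signal was 8.53 and 8.29 in Ctrl and 10.21 and 10.19 after F5446. The treated pair was the tighter of the KLF6 pairs, and the means differed by 1.79 ± 0.08 (SE; 3.47-fold; 8.41 ± 0.17 and 10.20 ± 0.015, SD, n = 2 each). Among the other genes of this class only KLF4 passed the test. KLF4 went from 6.01 and 5.92 to 6.81 and 6.69, a log2 difference of 0.78 ± 0.11 (SE, adjusted p = 0.00045 in limma's test). KLF2 (0.15), KLF1 (0.07) and KLF7 (0.01) did not pass, with adjusted p of 0.25, 0.78 and 0.975; with each array centred KLF2 did pass (log2 difference 0.28, adjusted p = 0.040).

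KLF9, KLF11 and KLF16 belong to the class that binds SIN3A. KLF9 (probe set 17094761) is known as a gene induced by thyroid hormone and glucocorticoids. Its log2 signal was 4.15 and 4.01 in Ctrl and 6.09 and 6.18 after F5446. Both Ctrl values lay under 4.42, the median of all values on the arrays, and both F5446 values above it. The means differed by 2.06 ± 0.15 (SE; 4.18-fold; 4.08 ± 0.099 and 6.14 ± 0.062, SD, n = 2 each), the largest difference in the family. The table has no detection calls, so where the Ctrl signal of KLF9 is near the background of the array the fold would be understated. KLF11 (probe set 16877007) is a repressor first described as a gene induced early by TGF-beta. Its log2 signal was 7.62 and 7.55 in Ctrl and 8.89 and 9.07 after F5446, a difference of 1.39 ± 0.09 (SE; 2.63-fold; 7.58 ± 0.045 and 8.98 ± 0.13, SD, n = 2 each). The Ctrl arrays of KLF11 were closer to each other than its treated arrays. KLF16 (probe set 16866815) is a repressor of the same class. Its log2 signal was 7.00 on both Ctrl arrays and 8.19 and 7.84 after F5446. The Ctrl values were identical to 5 decimals, as they were for 53 of the 14884 genes, so this pair gives no estimate of the spread. The means differed by 1.01 ± 0.12 (SE; 2.01-fold), where the SE borrows its variance from genes of like signal.

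The remaining genes of the SIN3A class were KLF10, KLF13 and KLF14. KLF10, the closest relative of KLF11 and likewise known as an early TGF-beta gene, went from a Ctrl mean of 9.002 (SD 0.0033, n = 2) to 9.81 and 9.95 on the F5446 arrays, a log2 difference of 0.88 ± 0.07 (SE, adjusted p = 8.14e-06). KLF13 was at 6.03 and 5.94 in Ctrl and at 6.11 and 6.65 after F5446. One treated array lay just above Ctrl and the other well above it, and the difference of 0.39 ± 0.17 (SE) had an adjusted p of 0.11, or of 0.035 with each array centred and 0.021 without F5446 replicate 1. KLF14 did not pass (0.09 ± 0.20, SE, adjusted p = 0.78) and its groups overlapped.

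KLF3 belongs to the class that binds CtBP. KLF3 (probe set 16966008) is a repressor known for competing with activating KLFs at shared sites. Its log2 signal was 7.97 and 8.13 in Ctrl and 9.09 and 9.26 after F5446, a difference of 1.13 ± 0.09 (SE; 2.18-fold; 8.05 ± 0.11 and 9.18 ± 0.12, SD, n = 2 each). The spread within the KLF3 groups was about the same on both sides. Of the other CtBP-binding genes, KLF12 went from 7.34 and 7.15 to 8.04 and 8.06 (0.81 ± 0.10, SE, adjusted p = 0.00012) and KLF8 was near 4 on every array (-0.16 ± 0.16, SE, adjusted p = 0.52). KLF3-AS1, a non-coding transcript annotated antisense to KLF3, was at 5.04 and 4.95 in Ctrl and 5.32 and 5.23 after F5446 and did not pass (0.28 ± 0.14, SE, adjusted p = 0.17).

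**Figure D2:**
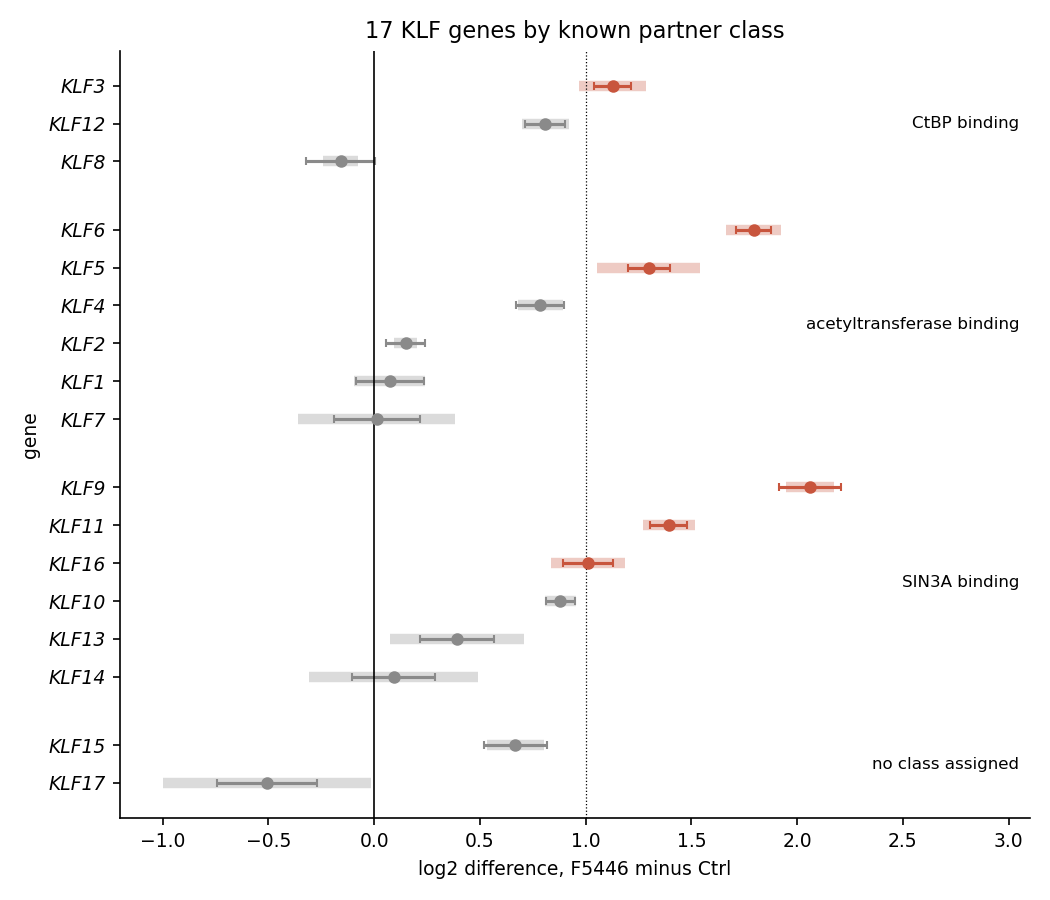
Log2 difference between F5446 and Ctrl (horizontal axis) for the 17 measured KLF genes, grouped by the partner class known for each; points and whiskers are the fitted difference ± SE, and pale bars span the 4 differences between single F5446 and Ctrl arrays. The 6 genes picked for their rise are red and the 11 others grey. The dotted line marks a 2-fold difference, and only picked genes lie beyond it.

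Each of these 3 partner classes held genes picked for their rise: 1 of 3 measured in the CtBP class, 2 of 6 in the acetyltransferase class and 3 of 6 in the SIN3A class. The class medians were 0.81, 0.47 and 0.95 on the log2 scale. They include the picked genes and are raised by the way these were picked, so the classes are not compared by them. The 11 genes not picked had a median of 0.15 (0.10 to 0.53 across the settings), beside -0.05 for all named genes. Leaving out the genes picked for their rise lowers this median, so no comparison is read from it. Across the whole family 15 of 17 genes had a difference above 0, the exceptions being KLF8 and KLF17 (-0.51 ± 0.24, SE, adjusted p = 0.13 in limma's test). The 15 include the 6 genes picked for their rise, so no rise of the whole family is read from them. KLF1, KLF7 and KLF14 lay near 0 and were below it in some other settings, down to -0.01, -0.23 and -0.18. Of the 11 genes not picked, 4 passed the test upward (KLF4, KLF10, KLF12 and KLF15) and 0 downward, where 18.2% and 22.7% of all genes did; because the picked genes were taken from the same contrast, nothing is read from this count. It was 6 upward with each array centred, and 1 downward, KLF17 (-0.84, adjusted p = 0.040), without F5446 replicate 2. KLF15, which acts in liver and muscle metabolism, went from 4.83 and 4.80 to 5.61 and 5.36 (0.67 ± 0.15, SE, adjusted p = 0.0060), and missed the threshold without F5446 replicate 1 (adjusted p = 0.074). KLF18 had no named probe set and was not analysed here.

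Ordered by the size of their difference the 6 genes were KLF9, KLF6, KLF11, KLF5, KLF3 and KLF16. KLF6 and KLF11 differed by 0.40 ± 0.12 (SE), and the 4 single-array differences of KLF6 (from 1.66) did not overlap those of KLF11 (up to 1.51). KLF9 and KLF6 differed by 0.27 ± 0.17 (SE), with ranges that came close but did not overlap. The remaining neighbours had overlapping ranges. KLF11 and KLF5 differed by 0.09 ± 0.13, KLF5 and KLF3 by 0.17 ± 0.13, and KLF3 and KLF16 by 0.12 ± 0.15 (SE each). These errors treat the genes as independent, although both genes of a pair were read on the same arrays. By rank of rise among the 14884 genes, KLF9 was number 136, KLF6 214, KLF11 385, KLF5 459, KLF3 617 and KLF16 788.

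**Figure D3:**
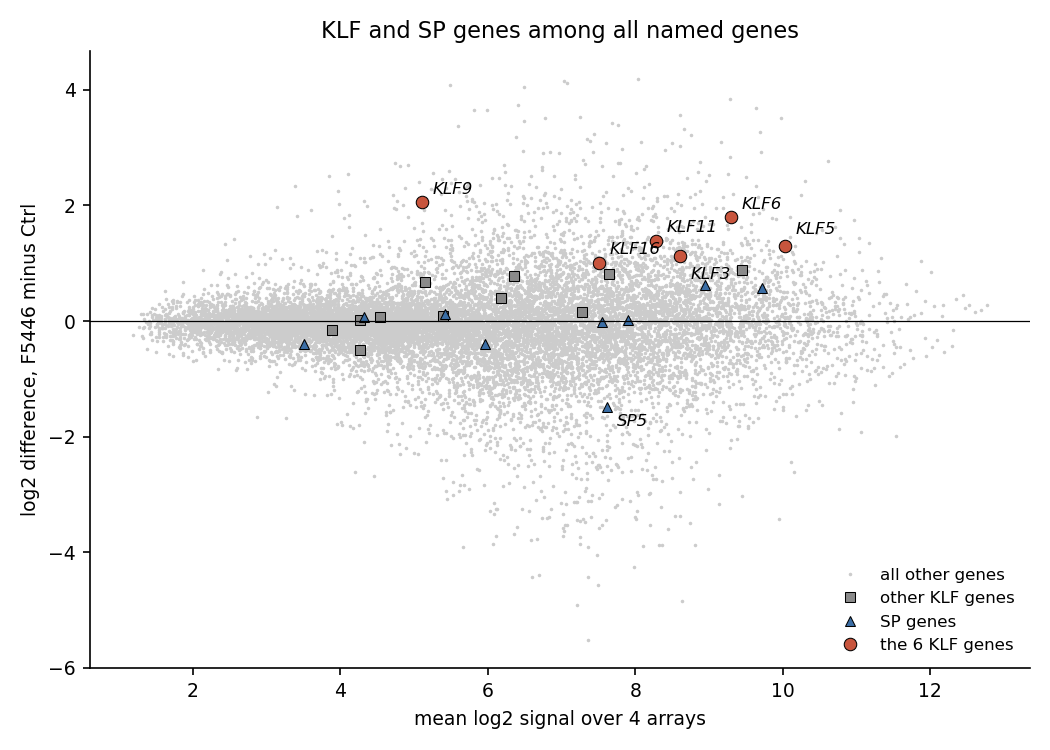
Log2 difference between F5446 and Ctrl (vertical axis) against the mean log2 signal over the 4 arrays (horizontal axis) for the 14884 named genes (grey dots), with the 6 picked KLF genes in red, the other 11 KLF genes as grey squares and the 9 SP genes as blue triangles. The red points lie between 1.01 and 2.06, inside the cloud of changed genes, and SP5 lies at -1.50.

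Other genes came close to the pattern of each of the 6 over the 4 arrays, measured as the Euclidean distance between log2 signals after subtraction of each gene's own mean. Nearest to KLF3 were TAX1BP1, an autophagy receptor gene (distance 0.015), and the metallothionein gene MT1X (0.025). Nearest to KLF5 were UBL3 (0.068) and CHIC2 (0.069), and nearest to KLF6 were HS3ST3A1, a heparan sulfate sulfotransferase gene (0.050), and RRAGC, which encodes a Rag GTPase that signals to mTOR (0.054). SRGAP1 (0.022) and OSER1 (0.074) were nearest to KLF9, R3HDM4 (0.012) and FNIP1 (0.024) to KLF11, and the microRNA loci MIR200C (0.042) and MIR637 (0.059) to KLF16. With 4 arrays in 2 groups such closeness is common. Within a distance of 0.25 there were 240 genes around KLF3, 179 around KLF16, 159 around KLF11, 88 each around KLF5 and KLF6 and 66 around KLF9.

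The SP factors share the DNA-binding domain of the KLFs and compete for the same GC-rich sites, and all 9 were measured. SP1 and SP2 rose, SP5 and SP9 fell and the other 5 did not pass, beside 18.2% of all genes higher and 22.7% lower. SP1, the broadly expressed activator, was at 9.52 and 9.34 in Ctrl and 10.02 and 9.99 after F5446 (0.58 ± 0.07, SE, adjusted p = 0.00016). SP2 was at 8.64 and 8.62 and then at 9.28 and 9.22 (0.62 ± 0.07, SE, adjusted p = 6.26e-05). SP5, a target gene of Wnt signalling, was at 8.40 and 8.33 in Ctrl and 6.89 and 6.85 after F5446. It fell by 1.50 on the log2 scale (SE 0.085, adjusted p = 1.23e-06), against the direction of the 6 KLF genes. SP9 went from 6.17 to 5.76 (-0.41 ± 0.12, SE, adjusted p = 0.026); its adjusted p ran up to 0.13 without Ctrl replicate 2 or F5446 replicate 1, was 0.11 without F5446 replicate 2 and 0.11 with each array centred, and was 0.072 over all probe sets. SP3 (0.01), SP4 (-0.02), SP6 (0.13), SP7 (0.07) and SP8 (-0.40) did not pass, and their adjusted p ran from 0.14 (SP8) to 0.92 (SP3).

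Of 15 measured genes of the corepressors through which KLFs act (19 listed), 2 rose and 6 fell, beside 18.2% of all genes higher and 22.7% lower, with a median of -0.12, or 0.01 with each array centred. The genes of the direct partners did not pass in 3 of 4 cases: CTBP1 (-0.12 ± 0.12, SE), CTBP2 (-0.02 ± 0.17, SE) and SIN3A (0.00 ± 0.06, SE) had adjusted p of 0.495, 0.96 and 0.975. SIN3B was at 6.84 and 6.95 in Ctrl and 7.54 and 7.64 after F5446 and rose by 0.70 ± 0.10 (SE, adjusted p = 0.00031). RCOR1, which encodes the scaffold CoREST and was named after its value was seen, rose by 0.68. The histone-binding subunit RBBP4 fell by 1.15, the histone methyltransferase gene EHMT2 fell by 1.13 and RBBP7 fell by 0.95, with adjusted p of 1.82e-06, 7.48e-06 and 6.61e-06. The 3 further genes that fell, named after their values were seen, were the deacetylase genes HDAC1 (-0.61) and HDAC3 (-0.63) and the demethylase gene KDM1A (-0.56).

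Of 12 measured coactivator and co-factor genes, 6 rose and 2 fell, beside 18.2% and 22.7% of all genes, with a median of 0.27. The acetyltransferase gene CREBBP was at 9.64 and 9.52 in Ctrl and 10.59 and 10.44 after F5446 and rose by 0.93 ± 0.07 (SE, adjusted p = 6.55e-06). EP300, which encodes p300, rose by 0.68 ± 0.05 (SE, adjusted p = 1.03e-05) and KAT5 by 0.75 ± 0.09 (SE, adjusted p = 0.00014). TEAD2, a DNA-binding partner of YAP, fell by 2.05, from 6.91 and 6.93 to 4.95 and 4.80. TEAD3 and TEAD4, named after their values were seen, rose by 0.67 and 0.58 (adjusted p = 0.0015 and 0.00013 in limma's test). TEAD1 (-0.09) and WWTR1 (0.10), likewise named afterwards, did not pass. YAP1, named after its value was seen, fell by 0.44 with its probe sets averaged. On its brightest probe set, the one used here, YAP1 fell by 0.26 (adjusted p = 0.0084 in limma's test). That call was lost with each array centred (adjusted p = 0.13), without the intensity trend (0.10), over all probe sets (0.052), without Ctrl replicate 1 (0.056) and without F5446 replicate 1 (0.090). KAT2B, which encodes the acetyltransferase PCAF and was likewise named afterwards, did not pass (-0.10 ± 0.16, SE, adjusted p = 0.69).

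KLF5 protein is short-lived, and of 7 measured genes for ubiquitin ligases and deubiquitinases tied to it or to related KLFs (10 listed) 5 rose and 0 fell, where 18.2% of all genes were higher and 22.7% lower, with a median of 0.52. SMURF2, a ubiquitin ligase gene, was at 9.16 and 9.31 in Ctrl and 10.34 and 10.44 after F5446 and rose by 1.16 ± 0.07 (SE, adjusted p = 2.04e-06). SMURF1 rose by 1.12 ± 0.07 (SE, adjusted p = 2.72e-06). ATXN3, a deubiquitinase gene, rose by 0.53 ± 0.12 (SE, adjusted p = 0.0060), but missed the threshold without F5446 replicate 1 (adjusted p = 0.071) or F5446 replicate 2 (0.065). WWP1, a ligase known to act on KLF5, did not pass (0.09 ± 0.08, SE, adjusted p = 0.48), and FBXW7 had no named probe set.

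**Figure D4:**
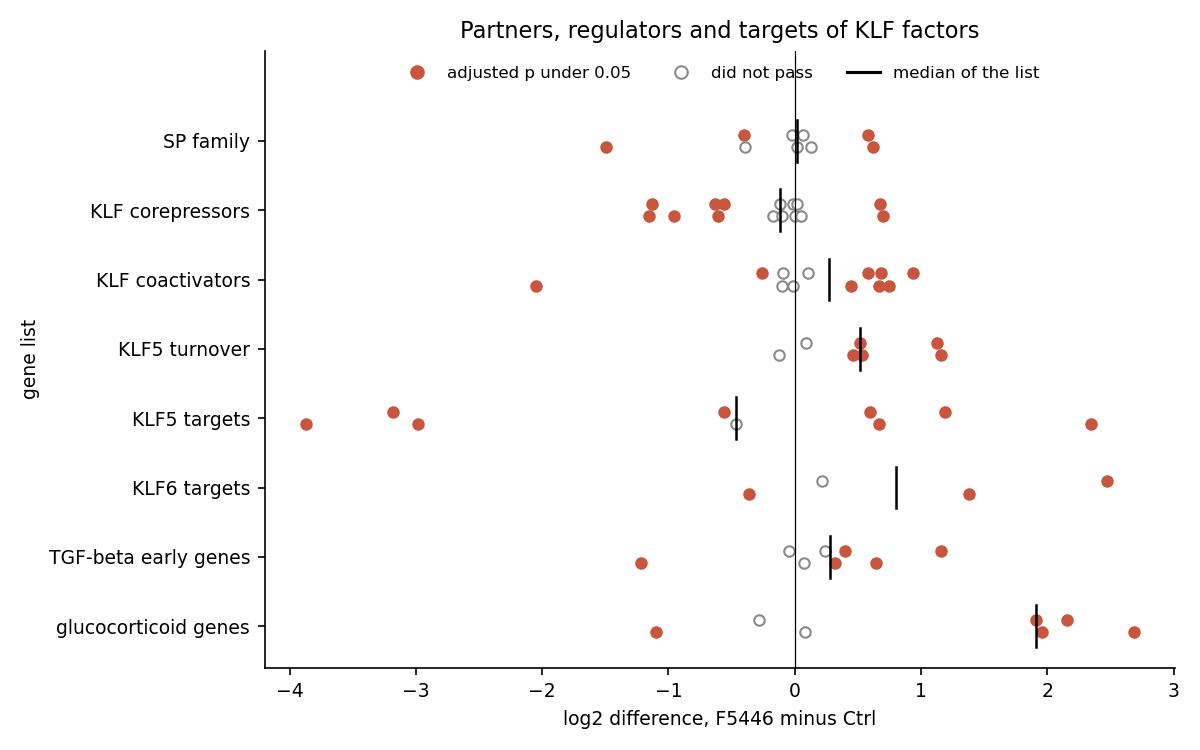
Log2 difference between F5446 and Ctrl (horizontal axis) for each measured gene of 8 lists around the KLF family (vertical axis); filled points passed limma's test at an adjusted p of 0.05, open points did not, and the bar is the list's median. The corepressor list has 6 filled points below 0 and 2 above, the KLF5 turnover list 0 below and 5 above, where 22.7% of all genes were lower and 18.2% higher.

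Genes known as targets of KLF5 in epithelial cells went both ways. Of 9 measured (12 listed), 4 rose and 4 fell (18.2% and 22.7% over all genes), with a median of -0.47, or 0.06 with dim genes left out, which drops FGFBP1. BIRC5, which encodes survivin, fell by 3.87, from 9.07 and 9.29 to 5.63 and 4.99. CDK1 fell by 3.18 and CCNB1, the gene of its cyclin partner, fell by 2.98. The genes that follow were named after their values were seen. EGFR, a growth factor receptor gene, was at 4.47 and 4.62 in Ctrl and at 6.78 and 7.00 after F5446 and rose by 2.34 ± 0.14 (SE, adjusted p = 1.64e-06). MYC rose by 1.19, the cyclin gene CCND1 by 0.67 and the growth factor gene PDGFA by 0.59. FGFBP1, a dim gene of a growth factor carrier, fell by 0.56 (adjusted p = 0.026), a call that was lost without any 1 of the 4 arrays (adjusted p of 0.056 to 0.16).

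Of KLF6 targets only 4 of 12 listed genes were measured, of which 2 rose and 1 fell (18.2% and 22.7% over all genes). ATF3, a stress-induced transcription factor gene, was at 4.86 and 4.79 in Ctrl and 7.50 and 7.09 after F5446 and rose by 2.47 ± 0.15 (SE, adjusted p = 1.87e-06). MMP14, a membrane metalloproteinase gene, rose by 1.38 ± 0.13 (SE, adjusted p = 2.72e-05). IGF1R fell by 0.37 (adjusted p = 0.018), a call that was lost in 6 of the 12 other settings.

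The inputs known for KLF9, KLF10 and KLF11 were covered in part. Of 11 genes induced by the glucocorticoid receptor 7 were measured, of which 4 rose and 1 fell (18.2% and 22.7% over all genes), with a median of 1.91. SGK1 was at 3.61 and 3.31 in Ctrl and 6.10 and 6.20 after F5446 and rose by 2.69 ± 0.17 (SE, adjusted p = 1.87e-06). ERRFI1, a feedback inhibitor gene of EGFR, rose by 2.15 and the phosphatase gene DUSP1 by 1.95; PER1, a clock gene, rose by 1.91 and FKBP5, a chaperone gene that the receptor strongly induces, fell by 1.10, these last named after their values were seen. ZBTB16 (0.08, adjusted p = 0.77) and ANGPTL4 (-0.28, adjusted p = 0.27) did not pass. Of 18 TGF-beta genes 8 were measured, of which 4 rose and 1 fell, beside the same shares of all genes, with a median of 0.28. SMAD6, an inhibitory SMAD gene, rose by 1.15 ± 0.10 (SE, adjusted p = 1.67e-05) and TGIF1 by 0.64 ± 0.09 (SE, adjusted p = 0.00049). SMAD4, the shared partner of the receptor-activated SMADs, fell by 1.22 ± 0.23 (SE, adjusted p = 0.0020 in limma's test), from 4.98 and 4.72 to 3.95 and 3.31. Both F5446 values of SMAD4 lay under 4.42, the median of all values on the arrays. The Ctrl values were not far above it, so the size of this fall is uncertain. SMAD7, which KLF11 represses, did not pass (-0.05 ± 0.12, SE, adjusted p = 0.83).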

How the data were processed

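The deposited table gives 1 value per probe set and array for 53617 probe sets, taken as log2 signal. The scale is not stated; log2 was inferred from the deposited values, which run from 0.71 to 13.8. Partek is named per the submitters' processing notes; the steps for background, scaling and probe set summary are not stated there. The platform annotation gives a single gene for 16098 probe sets; 37519 are unnamed here and 0 have several genes. For each of 14884 genes the probe set with the highest mean was used, and the group difference was estimated by limma 3.58.1 under R 4.3.3 (lmFit with group alone, eBayes with trend = TRUE). Two-sided p-values were Benjamini-Hochberg adjusted over all named genes. The fit was checked on simulated arrays with 100 genes changed by 1 and 100 by 2 on the log2 scale, far fewer than passed in the data. It recovered 57% and 84% of them, with 5 false calls among 146, so a gene that did not pass may still have changed. Precision is limited by the number of arrays, 2 per group. The 6 genes and the 11 gene lists were chosen with earlier results of these data known. The genes named were the KLF and SP genes, the 3 largest changes past the threshold in each list, fixed core partners (CTBP1, CTBP2, SIN3A, SIN3B, WWP1, FBXW7, EP300, CREBBP), SUV39H1 and the 2 nearest patterns per gene; every other gene named, in the marker, coactivator, target and regulator lists too, was chosen after its value was seen. Human promoter and protein sequences were not used here.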

Additional observations from a re-analysis of the deposited data

How the results depend on the processing

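The 6 KLF genes, picked for their rise, stayed above Ctrl in all 72 values that the 12 other settings gave. Many of these values repeat the main fit. The differences cannot move with dim genes left out, no intensity trend, robust variance or the replicate block. Nor can they move with averaged or all probe sets, since each of the 6 had 1 probe set. The median log2 difference of the 6 genes, 1.35, was 1.47 with each array centred and 1.30 after quantile normalization. It was 1.24 to 1.46 with 1 array left out. The 2-fold line between KLF16 and KLF10 moved with the scaling: KLF10 reached 1.01 with each array centred, and KLF16 was at 0.97 after quantile normalization and 0.84 without F5446 replicate 1. Genes higher and lower numbered 6274 and 5483 over all probe sets, because more features were tested, and 2069 to 2431 and 2580 to 2891 with 1 array left out. With the replicate block, 2722 genes were higher and 3342 lower. The block can change a gene's p-value but not its difference, so the KLF median of 1.35 was bound to stay. Deviations of same-numbered arrays from their group means correlated at 0.04 over genes. With 2 arrays per group both pairs give this same value, which cannot tell whether same-numbered arrays shared a culture or batch. None of the 118 other genes examined changed its call under the block. Calls among these genes were lost or gained in 9 cases with each array centred and in 3 to 8 with 1 array left out, and none that passed reversed. Leaving out dim genes dropped 19 of the 118. The table holds no detection calls or signal over background, which limits what can be said of dim genes such as KLF8, KLF17 and KLF9 in Ctrl.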
